A study of Mus musculus with 6 samples.

Results

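The matrix metalloproteinases and their tissue inhibitors (TIMPs) were examined in mouse peritoneal exudate cells with and without the transcription factor NF-IL6. The members were 10 genes: Mmp2, Mmp8, Mmp9, Mmp12, Mmp13, Mmp14, Timp1, Timp2, Timp3 and Adam19. They comprised every probe set on the array whose platform annotation gives 1 of these symbols, which came to 16 of 12488 probe sets. Of the 16, 11 probe sets (9 genes) exceeded a signal of 98.0 on at least 1 array. That value is the 40th percentile of all signals and served as a floor: a lower signal was set to it before log2 was taken, and a fold against such a signal is written "at least". The other 5 probe sets had signals of 1.6 to 93.1, under the floor on all 6 arrays. They were both Mmp2 probe sets, which left that gene without a measured change, and 1 further probe set each of Mmp9, Timp1 and Timp2.

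The 6 arrays were single-colour Affymetrix arrays, with 1 array for each of 3 genotypes in 2 states, without replicates; the small number of arrays limits how precise any value is. Wild-type cells (WT), cells of NF-IL6 knockout mice (KO) and cells of the knock-in line called KI(LAP) in the labels (KI) were measured untreated and after LPS (lipopolysaccharide, of bacterial walls) plus interferon-γ, which together drive classical macrophage activation. All carried the strain label C57BL/6. The titles give 12 h of stimulation for KO and KI and no time for WT. The labels state neither the animals' age, nor whether cells of 1 animal or of several were put on an array, nor how the KI(LAP) allele was built. NF-IL6 is C/EBPβ, the product of Cebpb; its activating form is known as LAP. The Cebpb signal, untreated and then stimulated, was 5492 and 9329 in WT, 12.7 and 59.0 in KO, and 2284 and 5890 in KI.

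Matrix metalloproteinases are zinc enzymes that are made as inactive proenzymes and cut collagen, elastin, gelatin and other matrix proteins, as well as cytokines and cell surface proteins. TIMPs bind the active enzymes and block them, so both sides of this balance are measured together. Macrophages are a known source of several of these enzymes, above all of Mmp12, the macrophage elastase, while Mmp8 and Mmp9 are stored in neutrophil granules.

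The median signal ran from 131 to 185 over the 6 arrays, and 55.7% to 65.8% of the probe sets that are not controls lay above the floor, with both ends at the stimulated KI and the untreated WT array. Of 8 macrophage markers, 7 were above the floor on all arrays, among them Lyz2, Cd68 and Csf1r. The summed signal of the 8 was 56919 to 60042 in untreated and 39330 to 50662 in stimulated cells. The exception, Mrc1, named after its values were seen, was under the floor on the 3 stimulated arrays. The macrophage markers did not move alike, and the others below were also named after their values were seen. Lyz2, Cd68, Csf1r and Mrc1 were lower after stimulation in each genotype. Adgre1 and Fcgr1 were higher in each (in WT from 2260 to 5562 and from 1511 to 3863), and Itgam and Cd14 in WT only. Of 10 neutrophil markers, 3 were above the floor on all arrays (Csf3r and S100a8 among them) and 3 on none. In such bulk RNA, fewer cells of a type and less RNA per cell cannot be told apart.

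**Figure D1:**
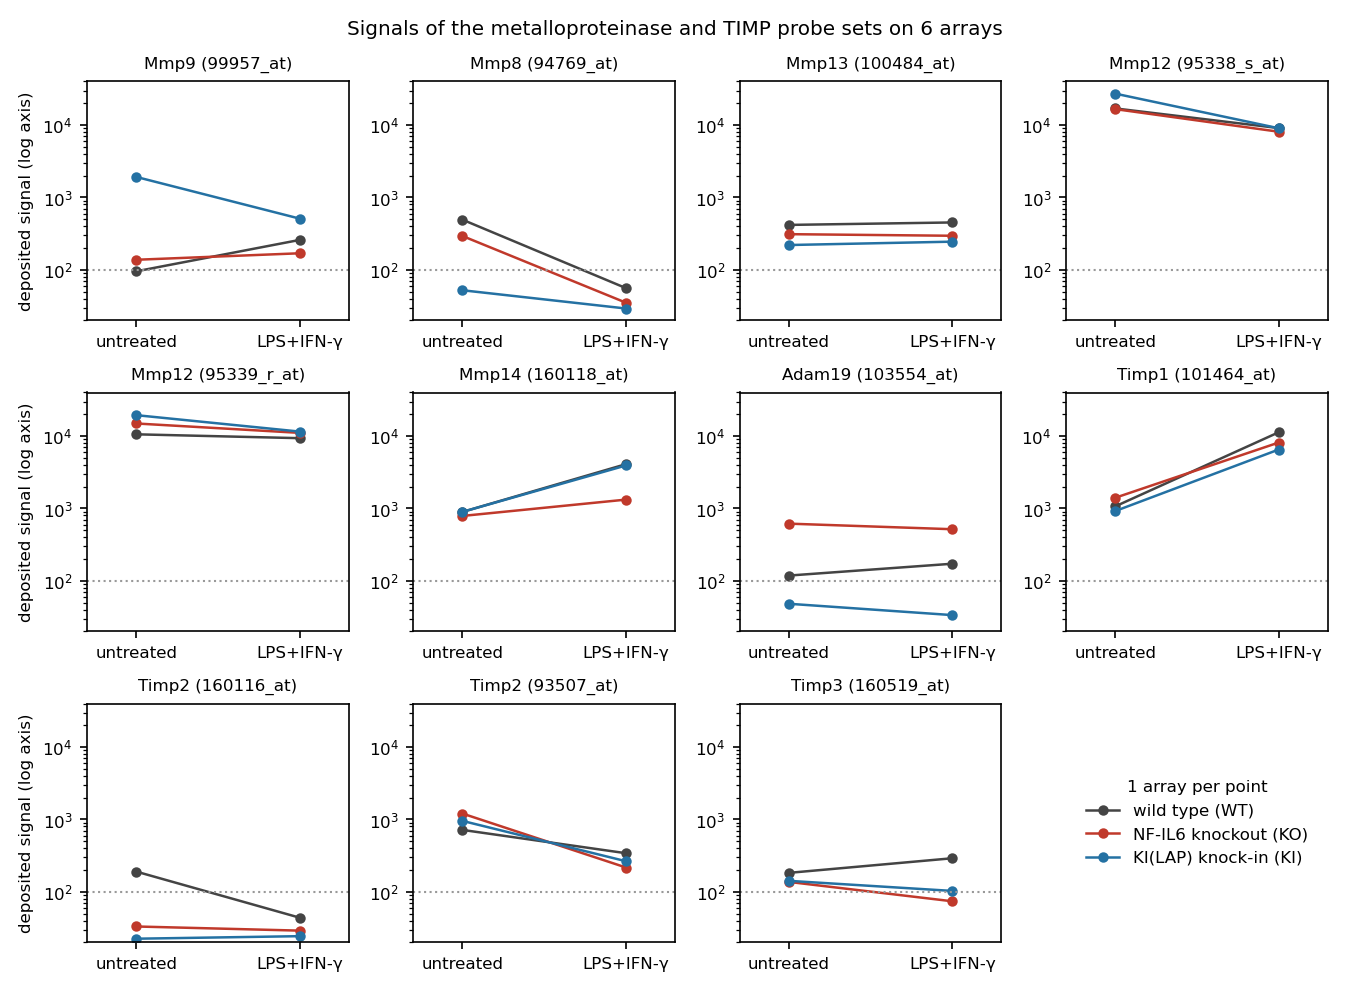
Deposited signal (log axis) of the 11 probe sets above the floor on at least 1 array, untreated and after LPS with interferon-γ, with 1 array per point, a line joining the 2 arrays of a genotype and the floor as a dotted line. Timp1 ends at 6518 or higher in every genotype, Mmp14 ends at 1325 in KO against 4096 in WT and 3927 in KI, and Mmp9 starts at 1922 in KI.

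The first comparison was stimulated against untreated cells over the 3 genotypes. Timp1 and Mmp14 rose, and Mmp12 and Timp2 fell. The fit in limma held genotype as a block. With 1 array a group its error contains the variation of the response between genotypes, and its p-values say nothing of how animals or cultures vary. By this test 2 of the 11 member probe sets tested rose and 2 fell, and at an unadjusted p under 0.05 2 were higher and 4 lower, where 27.2% of all probe sets lay under that value. After adjustment 5.03% of the 9344 probe sets tested rose and 6.01% fell. Members were chosen with earlier results of these data known, so their share set beside these is not an independent comparison. Over all 9344 the median log2 change was -0.12. With each array centred on its median, the numbers over all probe sets turned from 470 higher and 562 lower to 607 and 369, and the 4 members called were again called.

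Timp1 encodes a secreted inhibitor of most matrix metalloproteinases and was the member with the largest change. Its signal went in WT from 1067 to 11285, in KO from 1403 to 8143 and in KI from 919.6 to 6518. The untreated and stimulated arrays did not overlap: the lowest stimulated signal was 4.64-fold the highest untreated one. How many of all probe sets separate the 2 states in this way, as members named below also do, was not counted. The rise was 10.6-fold in WT, 5.80-fold in KO and 7.09-fold in KI cells (average log2 change 2.92, SE 0.19, adjusted p = 0.00234 in limma). On the stimulated arrays the WT signal was 1.39-fold the KO and 1.73-fold the KI signal, differences of single arrays without a test. A further Timp1 probe set, 162107_r_at, whose suffix marks relaxed rules of probe choice, was under the floor on all arrays (1.6 to 72.4) and gave no change.

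Mmp14 encodes a membrane-anchored metalloproteinase that cuts collagen at the cell surface and activates pro-Mmp2 with the help of Timp2. Its untreated signals were close together, at 895.5 in WT, 788 in KO and 897 in KI cells. After stimulation they were 4096, 1325 and 3927. Every stimulated signal was above every untreated one, but the KO array stood 3.09-fold below WT and 2.96-fold below KI. The rise was 4.57-fold in WT, 1.68-fold in KO and 4.38-fold in KI cells (average log2 change 1.69, SE 0.32, adjusted p = 0.0365 in limma). The call ended without the block (limma adjusted p = 0.0588) and without the intensity trend of the variance (limma adjusted p = 0.0569).

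Timp1 and Mmp14, the members that rose, are shown with the 130 bases upstream of their RefSeq start (build GRCm38.p6), at chrX:20870036-20870165 and chr14:54431468-54431597, both on the plus strand, 5′ to 3′.
Timp1: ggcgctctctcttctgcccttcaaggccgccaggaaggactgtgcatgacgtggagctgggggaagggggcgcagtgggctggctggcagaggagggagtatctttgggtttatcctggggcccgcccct
Mmp14: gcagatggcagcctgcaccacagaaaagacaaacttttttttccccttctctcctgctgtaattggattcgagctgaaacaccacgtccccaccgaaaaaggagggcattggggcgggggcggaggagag
The 250 bases upstream of each start were searched on both strands for the letters of an AP-1 motif (TGANTCA), a C/EBP motif (TTGCNNAA), the interferon-γ activated site GAS (TTCNNNGAA) and an NF-κB motif (GGGA and, after any 4 bases, CC). Neither promoter held any of the 4. Of 32851 tabled promoters, 6.75% held AP-1, 9.56% C/EBP, 7.02% GAS and 17.6% NF-κB letters. A match in such a search describes letters only.

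Timp2 encodes the inhibitor that also bridges Mmp14 and pro-Mmp2. Its probe set 93507_at went in WT from 717 to 341.5, in KO from 1206 to 217 and in KI from 955 to 265. All 3 stimulated signals were below all 3 untreated ones. The mean log2 change was -1.80 (SE 0.31, limma adjusted p = 0.0303), and the signal was lower by 2.10-fold in WT, 5.57-fold in KO and 3.61-fold in KI cells. The other Timp2 probe sets gave little beyond this: 160116_at was above the floor on the untreated WT array only (190.5) and did not pass the test (log2 change -0.32, SE 0.23, limma adjusted p = 0.434), and 161515_i_at was under the floor throughout. The untreated WT array is also the one with the highest share of probe sets above the floor.

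Timp3, the inhibitor that is held in the extracellular matrix, had low signals. They went in WT from 183 to 291, in KO from 137 to 74.0 and in KI from 142 to 103, so the stimulated arrays lay on both sides of the untreated ones (average log2 change -0.09, SE 0.29, adjusted p = 0.864 in limma). Stimulated WT stood at least 2.97-fold above stimulated KO and 2.83-fold above stimulated KI. Markers of fibroblasts and mesothelium had their highest summed signals on the WT arrays as well, 5735 and 6332 against 2974 to 3165 on the other arrays. Of these 13 markers 5 were above the floor on all arrays and 3 on none. The 3 brightest did not move alike: Dcn was at 1967 and 2880 in WT and at 337 to 794 in KO and KI cells, Col1a2 at 1740 and 1481 against 1042 to 1191, and Col1a1 at 304 and 637 against 357 to 692.5, highest in untreated KI. Their part in the Timp3 difference was not tested.

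Mmp8 encodes the neutrophil collagenase, Mmp13 another collagenase and Mmp12 the macrophage elastase. Their genes lie in 1 cluster of metalloproteinase genes on chromosome 9, in the order Mmp13, Mmp12, Mmp1b, Mmp3, Mmp1a, Mmp10, Mmp8, Mmp27, Mmp20 and Mmp7. The 130 bases upstream of their RefSeq starts (GRCm38.p6, plus strand, 5′ to 3′) are shown because the 3 genes share a cluster, with AP-1 and C/EBP letters in capitals. Mmp12 has 2 tabled starts. The stretches lie at chr9:7272384-7272513 for Mmp13, chr9:7344267-7344396 and chr9:7347244-7347373 for the first and second start of Mmp12, and chr9:7558299-7558428 for Mmp8.
Mmp13: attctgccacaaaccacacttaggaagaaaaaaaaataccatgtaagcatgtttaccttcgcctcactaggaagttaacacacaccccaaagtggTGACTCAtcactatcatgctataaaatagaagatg
Mmp12, first start: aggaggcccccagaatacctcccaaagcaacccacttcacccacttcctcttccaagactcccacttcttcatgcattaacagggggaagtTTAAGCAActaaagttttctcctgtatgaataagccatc
Mmp12, second start: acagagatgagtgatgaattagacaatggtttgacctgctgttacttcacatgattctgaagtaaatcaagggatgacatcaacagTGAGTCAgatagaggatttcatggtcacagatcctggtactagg
Mmp8: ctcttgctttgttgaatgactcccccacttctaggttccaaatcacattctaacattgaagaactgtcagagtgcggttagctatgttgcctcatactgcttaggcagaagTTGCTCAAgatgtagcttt
AP-1 letters began 35 bases upstream of the Mmp13 start and 44 upstream of the second Mmp12 start. C/EBP letters began 39 bases upstream of the first Mmp12 start, on the minus strand, and 19 upstream of the Mmp8 start. Promoters were tabled for 8 of the 10 genes, with 11 starts; Mmp2 and Mmp9 had no entry. Among the 11 starts 3 held AP-1, 2 C/EBP, 0 GAS and 1 NF-κB letters, the last at Adam19.

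Mmp12 had high signals on every array. Probe set 95338_s_at went in WT from 16990.3 to 9086.5, in KO from 16623 to 8093.5 and in KI from 27211 to 9039. The 3 stimulated signals lay close together and below every untreated one. The signal was 1.87-fold lower in WT, 2.05-fold in KO and 3.01-fold in KI cells (average log2 change -1.18, SE 0.17, adjusted p = 0.0193 in limma). Probe set 95339_r_at of the same gene has the suffix that marks relaxed rules of probe choice. It was lower after stimulation in each genotype too, in WT from 10578 to 9354, in KO from 14931 to 11073 and in KI from 19458 to 11534. Its change did not pass the test (average log2 change -0.45, SE 0.15, adjusted p = 0.137 in limma) unless only probe sets reaching the 75th percentile were tested (limma adjusted p = 0.0276), and its stimulated KI and KO signals were above the untreated WT one. On both probe sets the untreated KI array had the highest signal.

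Mmp8 had its signal in untreated WT and KO cells. It went in WT from 493 to 55.8, in KO from 293 to 35.1 and in KI from 52.2 to 29.2, so that only 2 arrays were above the floor. The signal was at least 5.03-fold lower after stimulation in WT and at least 2.99-fold lower in KO cells, and no fold can be given for KI. The mean did not pass the test (log2 change -1.30, SE 0.47, limma adjusted p = 0.156), but passed with log2(signal + 50) in place of the floor (-1.58, limma adjusted p = 0.0212). Mmp8 was tested only because 2 untreated arrays exceeded the floor, so neither result is independent evidence of a fall. The first counts KI as a change of 0, and the second takes signals under the floor as measured. Untreated WT was at least 5.03-fold and untreated KO at least 2.99-fold above untreated KI. The summed signal of the 10 neutrophil markers was 3017 in untreated WT, 2278 in untreated KO and 1981 in untreated KI cells, and 3010, 2107 and 1769 after stimulation. These markers did not move alike. In WT S100a8 went from 507 to 1073 with stimulation, while Csf3r, Camp, Mpo, Elane, Prtn3 and Ltf were lower. Ngp, S100a9 and Cxcr2 were under the floor on all arrays. The summed signal of 4 measured B cell markers, of which 3 were above the floor on all arrays and 1 on none, was 3082, 2818 and 604 in untreated WT, KO and KI cells, and 1341, 1177 and 537 after stimulation. Cd79b and Ms4a1 were lower after stimulation in each genotype, while Cd79a was lower in WT (1152 to 910) and KO and higher in KI. The B cell list was not the only one of this shape. The T cell sum was 421, 369.5 and 136 untreated and 161, 178 and 139 stimulated, with 4 of 5 measured markers under the floor on all arrays. The part of any of these cell types in the Mmp8 values was not tested.

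Mmp13 stayed within a narrow range. Its signals were 417 and 451 in WT, 311 and 296 in KO, and 220.1 and 245 in KI cells, with untreated before stimulated. No genotype changed by more than 1.11-fold (average log2 change 0.06, SE 0.23, adjusted p = 0.878 in limma). The genotypes were ordered WT, KO, KI in both states, and KI stood 1.90-fold below WT untreated and 1.84-fold below it after stimulation (log2 difference over both states -0.90, SE 0.28, limma adjusted p = 0.2395).

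Mmp9 encodes gelatinase B, which cuts denatured collagen and basement membrane collagen. Its probe set 99957_at went in WT from 95.3 to 259, in KO from 138 to 169 and in KI from 1922 to 509.6. Both KI arrays were above all WT and KO arrays, and the direction of the change differed: at least 2.64-fold higher in WT, 1.23-fold higher in KO and 3.77-fold lower in KI cells. The mean therefore lay near 0 with a large error (log2 change -0.07, SE 0.65, limma adjusted p = 0.954), and without the KI arrays it was 0.85 (limma adjusted p = 0.344). The second Mmp9 probe set, 162369_f_at, whose suffix marks probes shared within a gene family, was under the floor on all arrays (9.5 to 72.2) and gave no change.

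Adam19 belongs to the ADAM proteases, membrane-anchored relatives that release cell surface proteins. Its signals were 118 and 172 in WT, 617 and 516 in KO, and 48.2 and 33.6 in KI cells, untreated before stimulated. Genotypes did not overlap, and how many of all probe sets separate them so was not counted. The log2 change with stimulation was 0.54 in WT and -0.26 in KO, and 0 in KI, where both arrays were under the floor and set to it. The mean therefore lay near 0 (log2 change 0.10, SE 0.26, limma adjusted p = 0.842).

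**Figure D2:**
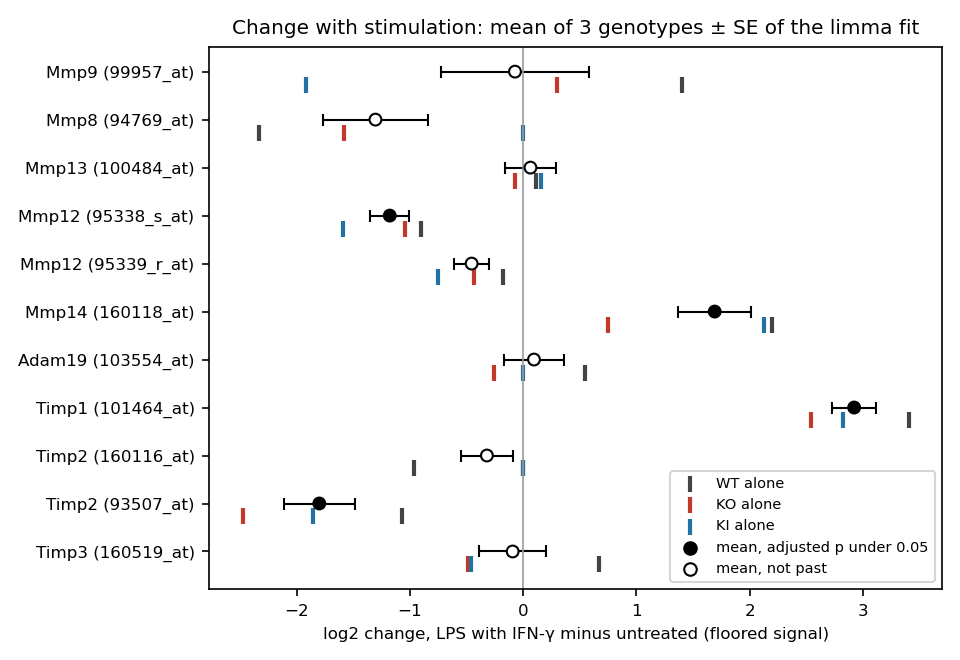
Log2 change with LPS and interferon-γ of the 11 probe sets: circles are the mean of 3 genotypes with the SE of the limma fit as bars, filled where the adjusted p was under 0.05, and coloured ticks are the changes within WT, KO and KI (1 pair of arrays each, signals under the floor set to it). Timp1 (2.92) and Mmp14 (1.69) lie right of 0, Timp2 93507_at (-1.80) and Mmp12 95338_s_at (-1.18) left of it, and the Mmp9 ticks spread from -1.92 to 1.40.

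The 4 calls for stimulation were lost without the arrays of any 1 genotype: their limma adjusted p ran from 0.0970 (Timp1, without KI) to 0.361 (Mmp14, without WT), with their directions kept. Such a fit has 1 residual degree of freedom. It called 0 to 13 of all probe sets higher and 0 lower, so the loss is not particular to these members. Changes of at least 2-fold within a genotype have no test. In WT they were seen for Mmp9, Mmp14 and Timp1 upward and for Mmp8 and Timp2 downward, where 8.54% and 10.1% of all probe sets tested moved as far. In KO they were seen for Timp1 upward and for Mmp8, Mmp12 and Timp2 downward (background 6.54% and 9.69%). In KI, Mmp14 and Timp1 were higher and Mmp9, Mmp12 and Timp2 lower (background 5.58% and 8.01%). Some of these changes were under 2-fold in other settings. Timp2 93507_at in WT was at -0.90 with median centring and -0.97 with log2(signal + 50), and Mmp12 95338_s_at in KO at -0.85 with median centring. With the floor at the 60th percentile Mmp8 was at -0.97 in WT and -0.22 in KO, and Mmp9 at 0.045 in WT.

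The second comparison was between genotypes, the question named in the series title. In the additive limma fit over both states, 0 of the 9344 probe sets passed for KO against WT and 0 for KI against KO, and 1 unnamed probe set (101869_s_at, chosen after its values were seen) was lower in KI than in WT, which is 0.0107% of those tested. At an unadjusted p under 0.05 the numbers were 946 (10.1%), 703 (7.52%) and 1598 (17.1%) for KO against WT, KI against KO and KI against WT. No member passed after adjustment, so the differences below are sizes.

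Adam19 was higher in KO than in WT and KI in both states. The KO signal was 5.22-fold above WT untreated and 3.0-fold above it after stimulation, and at least 6.29-fold and at least 5.27-fold above KI. Over both states the difference of KO from WT was 1.98 on the log2 scale (SE 0.32, limma unadjusted p = 0.0016, adjusted p = 0.432), and that of KI from KO -2.53 (SE 0.32, limma unadjusted p = 0.000521, adjusted p = 0.528). With log2(signal + 50) in place of the floor, KI against KO passed for Adam19 (-2.76, limma adjusted p = 0.0144). In untreated cells 10 of the 9344 probe sets, Adam19 among them, exceeded WT in KO by as much, or 4 to 119 with other floors and scalings. Of all probe sets, 6.30% were at least 2-fold higher in untreated KO than in WT and 4.30% at least 2-fold lower.

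Mmp14 and Timp3 were lower in stimulated KO than in stimulated WT cells, by 3.09-fold and at least 2.97-fold. With the floor at the 60th percentile the Mmp14 difference stayed at -1.63 on the log2 scale, while that of Timp3 shrank from -1.57 to -0.21. Among all probe sets 3.24% were lower by at least 2-fold in that comparison and 2.57%, Adam19 included, higher. In untreated cells neither differed between KO and WT by more than 1.33-fold. The stimulated comparison sets a labelled 12 h against an unstated time in WT. Set against WT, the log2 change on stimulation in KO was smaller or more negative by at least 1 for Mmp14 (-1.44), Timp2 93507_at (-1.41), Timp3 (-1.16) and Mmp9 (-1.10, but nearer to 0 than -1 with every other scaling and floor except that at the 20th percentile), where 7.18% of all probe sets were lower and 5.36% higher by as much. For Timp2 part of this lies in untreated cells, where KO stood 1.68-fold above WT.

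Against WT, the KI arrays differed most in untreated cells. Mmp9 was at least 19.6-fold higher and Mmp8 at least 5.03-fold lower in untreated KI cells, where 8.12% of all probe sets were at least 2-fold higher and 10% at least 2-fold lower. The Mmp9 difference was the largest upward one among the 9344 probe sets tested, also with a floor at the 20th percentile, log2(signal + 50), quantile normalization or median centring, while 5 were as large once the floor was raised to the 60th percentile. After stimulation Mmp9 was 1.97-fold higher in KI than in WT, and Timp3 was at least 2-fold lower (2.83-fold, or a log2 difference of -0.21 with the floor at the 60th percentile), where 4.92% of all probe sets were lower and 1.89% higher by that much. Adam19, under the floor in KI, was at least 1.21-fold lower than in WT untreated and at least 1.76-fold lower after stimulation. With the floor at the 20th percentile its log2 differences were -1.29 and -2.36. Over both states Mmp9 differed by 2.64 on the log2 scale (SE 0.80, limma unadjusted p = 0.0213, adjusted p = 0.237). Mmp14, in contrast to KO, was within 1.04-fold of WT in both states of KI. The log2 change with stimulation differed between KI and WT by at least 1 for Mmp8 (2.33, with KI at the floor on both arrays), Mmp9 (-3.32) and Timp3 (-1.13), where 6.77% of all probe sets were higher and 8.87% lower by as much.

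Set directly against KO, untreated KI cells had a Mmp9 signal 14.0-fold higher, with Mmp8 and Adam19 at least 2.99-fold and 6.29-fold lower (background 2.84% higher and 5.36% lower by at least 2-fold). After stimulation Mmp9 and Mmp14 were 3.01-fold and 2.96-fold higher and Adam19 at least 5.27-fold lower (background 1.49% and 2.76%). The log2 change with stimulation was larger in KI by 1.38 for Mmp14, and smaller for Mmp9, with a difference of -2.21 (background 5.07% higher and 4.09% lower by at least 1). For Mmp8 the difference was 1.58, but both KI arrays were at the floor, so no change in KI was measured. With the floor at the 60th percentile it was 0.22. KO against WT, KI against WT and KI against KO share arrays, so their values for a member are not independent of each other.

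**Figure D3:**
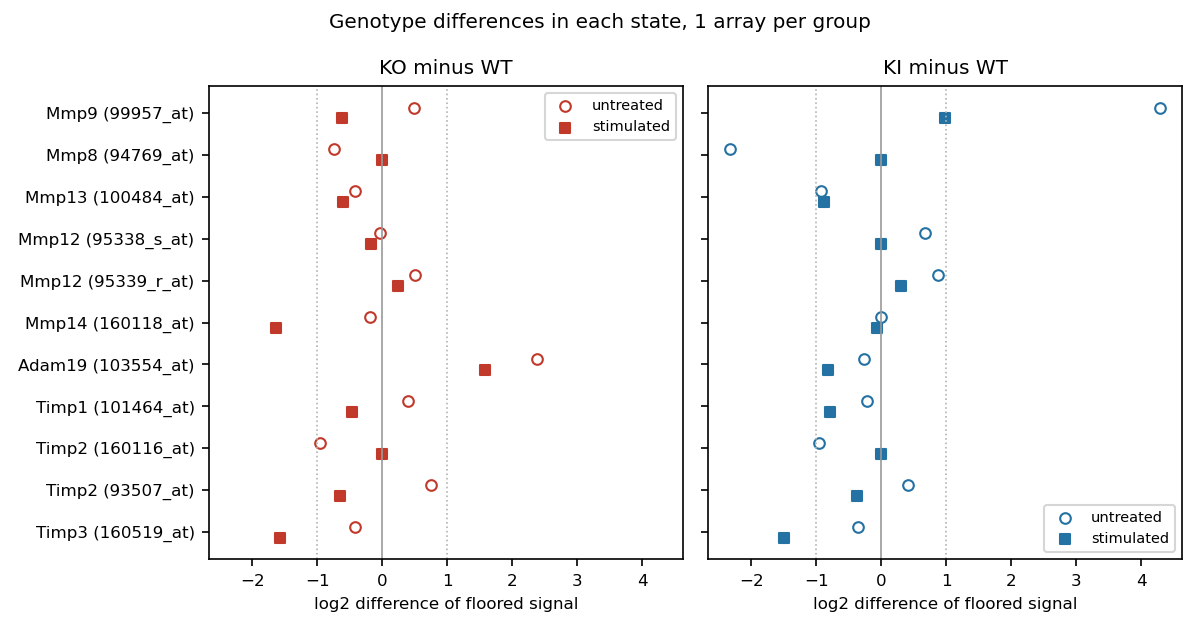
Log2 difference from WT of the 11 probe sets in KO (left) and KI (right), untreated as open circles and stimulated as filled squares, with 1 array per group, signals under the floor set to it and dotted lines at a 2-fold difference. Adam19 lies at 2.38 and 1.58 in KO, Mmp14 and Timp3 lie left of -1 in KO only for stimulated cells, and Mmp9 lies at 4.29 in untreated KI.

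The dendritic cell and myeloid integrin Itgax, like Mmp9, had its highest signals on the KI arrays, above all the untreated one. It is named here also as the nearest profile to Mmp9 in the search described next. The Itgax signal was 7301 and 3141 in untreated and stimulated KI cells and 816 to 1799 on the other arrays. In KO the 2 genes went opposite ways with stimulation, Itgax from 1799 to 1526 and Mmp9 from 138 to 169. The summed signal of 4 measured dendritic cell markers was 1664 in WT, 2723 in KO and 7759 in KI before stimulation, and 2493, 3706 and 3658 after it. Of these markers Itgax and Flt3 were above the floor on all arrays and Zbtb46 on none, Flt3 was at 375 in untreated KI against 746 and 756 in untreated WT and KO, and Ccr7 was at 78.5 in untreated KI cells. The part of such cells in the Mmp9 signal was not tested.

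By profile over the 6 arrays, the 3 genes nearest to Mmp9 were Itgax, Alas1, the first enzyme of heme synthesis, and Cdkn1c, an inhibitor of cyclin-dependent kinases. Their root mean square difference from Mmp9 was 0.55, 0.57 and 0.62 on the log2 scale, each gene taken relative to its own mean. For Mmp14 they were Ralgds, an exchange factor for Ral GTPases (0.22), Ampd3, an AMP deaminase (0.38), and Rgcc (0.39). Ralgds reached 4189 in WT, 1512 in KO and 3054 in KI cells after stimulation, from 646 to 781 untreated. For Timp1 the nearest were Lrrc8c (0.25), Ak4 (0.28) and the transcription factor Irf1 (0.30), for Timp2 Elovl5 (0.19), Rasa3 (0.22) and Txndc16 (0.23), for Mmp8 Scx (0.16), Wdr45 (0.30) and S100a13 (0.31), and for Adam19 Zfp36l1 (0.47), D17H6S56E-5 (0.53) and Gatm (0.54). The points share 6 arrays, and the 3749 probe sets searched were those with 1 symbol and a highest signal of at least 532. Signals under the floor were set to it here, which makes arrays under it alike. Mmp8 was above the floor on 2 arrays only, and Scx was under it on the others too (45.7 to 96.9), so part of their nearness comes from the floor. Lrrc8c was under the floor on all untreated arrays (46.4 to 84.9) and Ak4 in untreated WT (86.1) and KI (22.8).

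**Figure D4:**
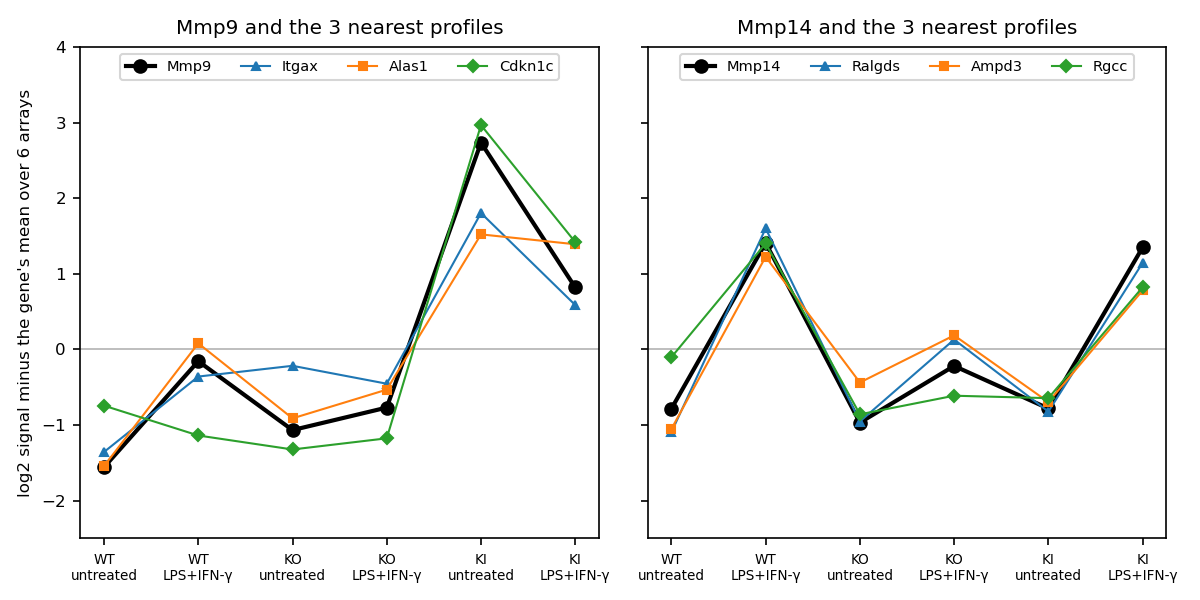
Log2 signal relative to each gene's mean over the 6 arrays (signals under the floor set to it) for Mmp9 and Mmp14 (black circles) and the 3 genes of nearest profile (coloured), with 1 array per point. The Mmp9 group peaks on the untreated KI array, and the Mmp14 group on the stimulated WT and KI arrays.

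Other genes of matrix breakdown were taken from lists, each gene by its brightest probe set. Of the 6767 named genes tested, 5.31% rose and 6.55% fell with stimulation, with a median log2 change of -0.13. Of 7 other metalloproteinases on the array, 3 exceeded the floor and 0 passed; Mmp11 and Mmp17 had log2 changes of -0.14 and -0.23. Of the 3 other inhibitors on the array only Tfpi2 exceeded the floor, at -0.10, and it did not pass. Among 8 tested ADAM and ADAMTS genes, 1 fell and 0 rose (median -0.33). It was Adam10, a sheddase of Notch and other surface proteins, which went in WT from 1006 to 429.5, in KO from 1702 to 574.5 and in KI from 1428.5 to 547.5 (log2 change -1.39, SE 0.16, limma adjusted p = 0.0103).

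Of 5 genes of plasminogen activation, a route by which proenzymes of metalloproteinases are cut, 1 rose and 0 fell (median 0.59). It was Plaur, the urokinase receptor (0.59, SE 0.12, limma adjusted p = 0.0399). Of 10 genes for activation and surface partners, 0 passed (median -0.14), with Cd63, a tetraspanin that binds Timp1, at -0.25 and Bsg, an inducer of metalloproteinases, at -0.29. Of 14 matrix substrate genes 0 passed (median 0.06), with Fn1, fibronectin, at -0.79 and Col1a2 at -0.08.

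Lysosomal proteases, which cut matrix in acid compartments, moved both ways. Of 9, 1 rose and 3 fell (median -0.30): Ctsc, which activates granule serine proteases, rose by 1.58 (limma adjusted p = 0.0270), and Lgmn, Ctsk and Ctsl changed by -1.51, -1.04 and -0.92 (limma adjusted p = 0.0103, 0.0165 and 0.0142). Of 11 transcription factors known at metalloproteinase promoters, 1 rose and 0 fell (median 0.26). It was Junb, a subunit of AP-1, whose signal went in WT from 1522 to 3689, in KO from 1478 to 4527 and in KI from 1294 to 4429 (log2 change 1.56, SE 0.14, limma adjusted p = 0.00613).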

How the data were processed

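RNA of 6 samples was extracted with Trizol and labelled from 6 µg of total RNA, per the labels' protocols. The deposited values are linear signal intensities from MAS5, the tool that the submitters' processing notes name; which version ran, to what target it scaled and how it called detection is not given in the sources used here. Trimmed means (2% off each end) were 500.3 to 500.4, so the deposited arrays were already on 1 scale. No pair of 15 held identical values.

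Intensities were rescaled to the mean trimmed mean, floored at the 40th percentile (98.0) and taken as log2. Without 66 control probe sets, 9344 of 12422 exceeded the floor on at least 1 array. Platform annotation gave 10833 probe sets 1 symbol, 396 several and 1193 none; all 16 member probe sets matched RefSeq genes of GRCm38.p6 by identifier, and 0 symbols changed. R 4.3.3 and limma 3.58.1 were used: an additive fit of genotype and state (residual degrees of freedom: 2), eBayes moderation along an intensity trend, Benjamini-Hochberg adjustment over all 9344, threshold 0.05. Contrasts of single arrays have no test and were called at 1 on the log2 scale. The code was tested on simulated data. Members, lists and the rule for named genes were chosen with earlier results of these data known. The rule took all members, the up to 4 list genes of largest change past the test (otherwise the 2 of highest mean signal), up to 3 of the brightest markers per list, and the 3 nearest profiles for members spanning at least 2 on the log2 scale. Marker lists of mast, B, T and NK cells and eosinophils were also summed: their sums were 1823 to 2473, 604 to 3082, 136 to 421, 64.2 to 155 and 69.3 to 297 on the untreated arrays, and 1296 to 1753, 537 to 1341, 139 to 178, 38.9 to 66.6 and 67.1 to 88.9 on the stimulated ones.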

Additional observations from a re-analysis of the deposited data

Results flagged for a closer look

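Mmp9 (99957_at) changed in opposite directions in different genotypes: its log2 change with stimulation was 1.40 in WT and -1.92 in KI cells, a difference of -3.32 for KI minus WT. Each value comes from 1 pair of arrays, and the difference was not tested. With the floor at the 60th percentile the WT change was 0.045 and the difference -1.96, so that WT no longer rose by 1 or more. Only 5 of the 9344 probe sets, Mmp9 among them, had a change in KI that was lower than in WT by as much. Groups of 4 or more samples, in which single outlying samples could be looked for, do not occur in this design.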

How the results depend on the processing

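Direction and call of Timp1, Timp2 (93507_at), Mmp12 (95338_s_at) and Mmp14 were kept with floors at the 20th and 60th percentile, log2(signal + 50), quantile normalization, median centring and a filter at the 75th percentile; Mmp14 alone lost its call without the intensity trend and without the block. Without any filter 0 members, 49 higher and 20 lower probe sets passed; the cause was not tested. Without the arrays of 1 genotype, which leaves 1 residual degree of freedom, 0 to 13 probe sets were higher, 0 lower and 0 members passed for stimulation, and 0 were lower in KI than in WT without the KO arrays. In all 5 member probe sets passed for stimulation with log2(signal + 50) (Mmp8 added) and with the 75th percentile filter (Mmp12 95339_r_at added). Over all probe sets 969 were lower with stimulation with log2(signal + 50), 883 with the 75th percentile filter and 369 with median centring. Genotype calls stayed few: for KO against WT, 1 lower with the 20th percentile floor or quantile normalization, 2 higher and 5 lower with log2(signal + 50), and 3 lower with the 75th percentile filter; for KI against WT, 0 lower with the 60th percentile floor, quantile normalization or no trend, 28 higher and 45 lower with log2(signal + 50), 2 and 2 without a filter, and 14 and 18 with the 75th percentile filter; for KI against KO, 1 and 1 with the 20th percentile floor, 6 and 8 with log2(signal + 50), Adam19 being the 1 member, and 6 and 6 with the 75th percentile filter. Differences in induction of at least 1 among member probe sets were 10, and 5 with the 60th percentile floor, where those of Mmp8 and Timp3 and that of Mmp9 between KO and WT were under 1 in size. Changes of sign concerned means near 0: for stimulation Adam19 (-0.078 and -0.085 with the 20th and 60th percentile floors, -0.022 with log2(signal + 50), -0.13 to 0.27 when 1 genotype was left out), Timp3 (0.071 with the 60th percentile floor, 0.081 quantile, 0.062 median centring, -0.47 to 0.10 with 1 genotype left out) and Mmp9 (0.019 quantile, 0.031 median centring, -0.81 to 0.85 with 1 genotype left out, the highest without KI); for KO against WT with median centring Mmp12 95338_s_at (0.013) and Timp1 (0.075); for KI against WT with median centring Mmp14 (0.30); and for KI against KO Timp2 93507_at (0.053 quantile, 0.19 median centring). The cause was not tested. Genotype as a block pairs the arrays of each genotype in the reported fit. No paired analysis was possible beyond that, because the labels number no replicates. Signal near the floor limits Mmp8, Mmp9, Adam19, Timp3 and Timp2 160116_at, and Mmp2 gave no value above it.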
